A study of Danio rerio with 6 samples.

Results

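The 5 genes described here, tbx2a, tbx2b, tbx3a, bmp4 and foxn4, pattern the atrioventricular canal (AVC), the narrow segment of the looping heart that separates the atrium from the ventricle. They were chosen by symbol from a table of 23000 genes, and each symbol occurred in 1 row. RNA was sequenced in bulk from wild-type zebrafish atrial cardiomyocytes (CMs) at 48 and 72 hours post fertilization (hpf), 3 libraries for either stage, 6 altogether. At both stages the hearts carried the same 3 reporters, in which the myh6 promoter drives mTagBFP2 in atrial CMs, the myh7 promoter drives mCherry-NTR in ventricular CMs, and 7XTCF-Sia:eGFP reads Wnt/β-catenin activity, which labels CMs of the AVC and of the sinus venosus. Cells with high mTagBFP2 and low or no mCherry were sorted, and eGFP+ cells were gated out, so the libraries come from a sort that was meant to leave AVC CMs out. Each library pools cells of many dissected hearts, and the p-values below measure the spread between such pools. By the methods the cells were few and were gathered over several sorting sessions. Quality control of the RNA was skipped because its amount was low. The stage is the only contrast, and the study asked through it which genes change before atrial CMs elongate.

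In the canal, the myocardium does not take on the chamber program of gene expression. Tbx2 and Tbx3 are T-box repressors that compete with the activator Tbx5 and keep chamber genes such as Nppa off in mouse, and Bmp signaling is known in mouse and chick to induce Tbx2. In zebrafish, bmp4 RNA is found along the early heart tube and later becomes restricted to the canal and the ends of the heart, and Foxn4, a forkhead factor, activates tbx2b in the canal. These genes also act in other organs, among them the retina.

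Totals ranged from 3694451 to 5629941 counts at 48 hpf and from 3577234 to 4541886 at 72 hpf. A floor of 3 counts, the least taken here as detection, lay between 0.533 and 0.839 CPM, the unit in which each library total is scaled to the same sum, and it covers counting error only because reads carried no molecular identifiers. The authors removed duplicate reads, which can hold the counts of abundant genes down. The counts of myl7, a myosin light chain gene of all CMs, ranged from 1708 to 1893 over the 6 libraries, a ratio of 1.11 between the highest and the lowest, whereas the totals differed by a ratio of 1.57. The atrial myosin gene myh6 had 6919 to 7877 counts in every library. The ventricular myosin gene myh7 had 4851 to 5228 counts at 48 hpf and 2359 to 3115 at 72 hpf. The gate kept cells with a low or absent myh7 reporter, and by the methods the atrium showed a low signal of it. Replicate 3 at 48 hpf and replicate 3 at 72 hpf were the shallowest libraries, and 17.4% and 19.8% of the tested genes were at or under 3 counts there, against 7.29% to 15.7% in the other libraries.

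Of the 5 canal genes, tbx2b, bmp4 and tbx2a had 346 to 2326 counts in every library, tbx3a at 158 to 210 counts in all libraries but 1, and foxn4 at 47 counts or fewer. Stages were tested against each other by edgeR's quasi-likelihood method over the 16100 genes whose normalized count averaged more than 5, and a call needed a Benjamini-Hochberg adjusted p under 0.05 together with an absolute log2 fold change over 0.585. All 5 genes passed the filter on low counts, and edgeR called 0 of the 5, where 0.00621% of all tested genes were called. At an unadjusted p under 0.05, tbx2b alone was lower at 72 hpf, beside 5.61% of all tested genes lower, 3.12% higher and 8.74% in either direction. DESeq2 called tbx2b lower and none of the other 4, beside 3.02% of genes called lower and 4.25% called in either direction, and limma voom called 0 of all genes. The study itself used DESeq2, with the same thresholds on average count, adjusted p and fold change. Summed over the 5 genes, the 48 hpf libraries (here and below in the order of replicates 1, 2 and 3) held 994, 841 and 1063 CPM, and those of 72 hpf held 810, 669 and 791 CPM. The summed level was lower in every 72 hpf library than in every 48 hpf library, mainly through bmp4 and tbx2b. In bulk samples, fewer cells that express a gene and less RNA per cell cannot be told apart.

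**Figure D1:**
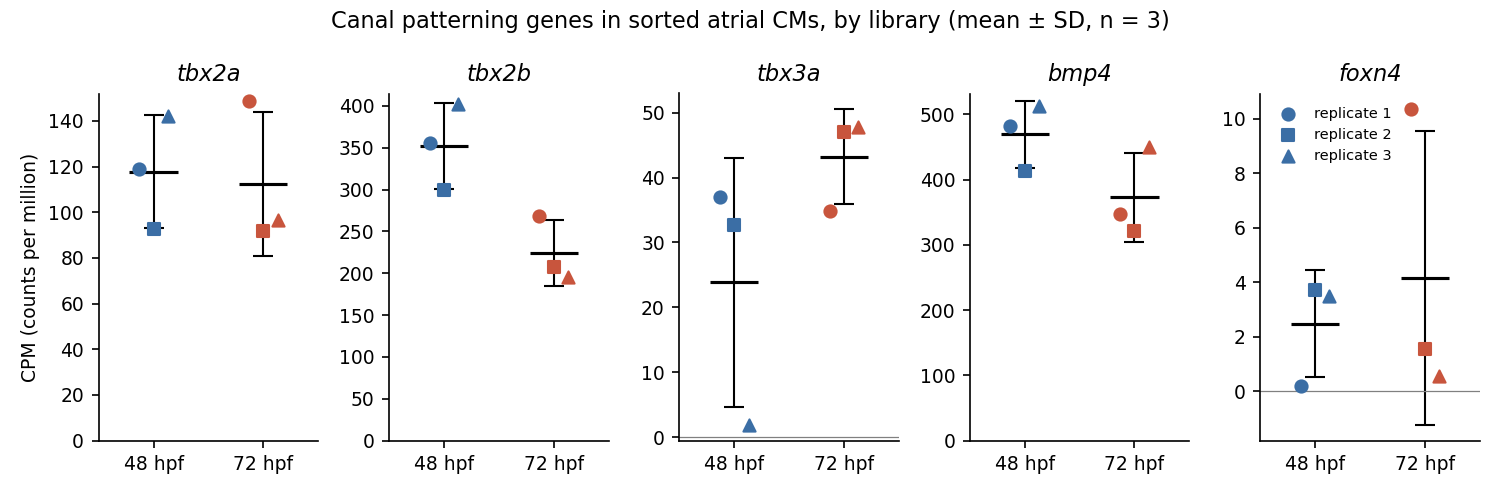
Level of each canal gene in CPM (vertical axis, with a separate scale for each gene) at 48 and 72 hpf. Points are libraries with a symbol for each replicate number, horizontal bars are means and error bars are SD (n = 3). The stages are separate for tbx2b, at 299 to 402 against 195 to 269 CPM, and overlap for the other genes.

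The largest separation between the stages was in tbx2b, which encodes the Tbx2 paralog that zebrafish need to keep chamber genes out of the canal. It lies on chromosome 15 of danRer11 from 27364394 to 27371340 on the plus strand. It had 1679, 1683 and 1485 counts in the 48 hpf libraries and 1221, 926 and 698 in the 72 hpf libraries. Every 72 hpf library was below every 48 hpf library, in raw counts as in CPM, which 9.32% of all tested genes also showed in this direction on normalized counts (7.24% in the other and 16.6% in either), and on that scale none of the other 4 canal genes did. After TMM normalization the level was 1575 ± 238 counts (SD, n = 3) in the earlier cells and 985 ± 163 at 72 hpf (SD, n = 3), a 1.60-fold lower mean at 72 hpf. The log2 fold change was -0.67 with a standard error of 0.17 and a 95% interval from -1.07 to -0.28 (unadjusted p = 0.00467, adjusted p = 0.394, edgeR's quasi-likelihood test). The exact permutation test of 3 libraries against 3 gave p = 0.1 (two-sided), the smallest it can give. DESeq2 gave the same log2 fold change of -0.67 and an adjusted p of 0.00276.

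The difference in tbx2b kept its direction in each of the 6 fits that left out 1 library, with log2 fold changes from -0.81 to -0.57 and unadjusted p-values from 0.00246 to 0.0202 in edgeR. By the methods both instruments of the study sorted the first 2 replicates and 1 instrument sorted the third. The labels do not name the sorter, so the sorter covariate rests on their numbers following the methods. With replicates 1 and 2 only, the log2 fold change of tbx2b was -0.49 (unadjusted p = 0.0422, edgeR), which is short of the fold threshold. The highest 48 hpf library (402 CPM) and the lowest 72 hpf library (195 CPM) were both numbered 3, and the labels state no pairing. At 48 hpf the raw counts of tbx2b differed by a ratio of 1.13 between libraries and the totals by 1.52, so that the shallowest library had the highest CPM. With raw counts that were not scaled to the total, a fit added after the data were seen, the log2 fold change was -0.77 (unadjusted p = 0.00818, edgeR), beside a median over all genes of -0.17 in that fit and -0.02 with scaling.

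Its paralog tbx2a, which acts beside tbx2b in the canal of zebrafish, showed no such separation. It lies on chromosome 5 from 56504717 to 56513825 on the minus strand. The counts were 561, 521 and 525 at 48 hpf and 675, 410 and 346 at 72 hpf. The stages overlapped, since replicate 1 at 72 hpf, at 149 CPM, was the highest of the 6 libraries and the other 72 hpf libraries, at 91.8 and 96.7 CPM, stood next to the lowest at 48 hpf, at 92.5 CPM. Normalized counts were 527 ± 113 (SD, n = 3) in the earlier cells and 495 ± 133 at 72 hpf (SD, n = 3). The log2 fold change of -0.09 had an interval from -0.68 to 0.50 (adjusted p = 0.968, edgeR), so a change of up to those sizes in either direction is not shut out by these libraries. The estimate took the other sign without replicate 3 at 48 hpf (0.071), without replicate 2 at 72 hpf (0.037), without replicate 3 at 72 hpf (0.0012) and with replicates 1 and 2 only (0.16).

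Because both paralogs were read in the same libraries, their balance does not depend on the scaling between libraries. The tbx2b share of the tbx2a and tbx2b reads was 75.0%, 76.4% and 73.9% in the 48 hpf libraries but 64.4%, 69.3% and 66.9% in the 72 hpf libraries. The highest upper bound at 72 hpf was 71.8% and the lowest lower bound at 48 hpf was 71.9% (exact binomial 95% intervals in single libraries, for counting error only). The intervals of the stages therefore did not overlap, by a narrow margin, and how often other gene pairs separate in this way was not computed. The share comes from the same tbx2a and tbx2b counts as above and is not a separate result. The mean share was 75.1% ± 1.24 (SD, n = 3) in the earlier cells and 66.9% ± 2.46 (SD, n = 3) in the later ones, a difference of -8.21 percentage points, with p = 0.1 in a two-sided exact permutation test, the smallest that 3 against 3 allow. Leaving out 1 library gave differences from -9.44 to -6.98 points. Reads that map to several places were removed, so stretches that the paralogs share to the base add to neither count, and the share is one of unique reads and not of transcripts.

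**Figure D2:**
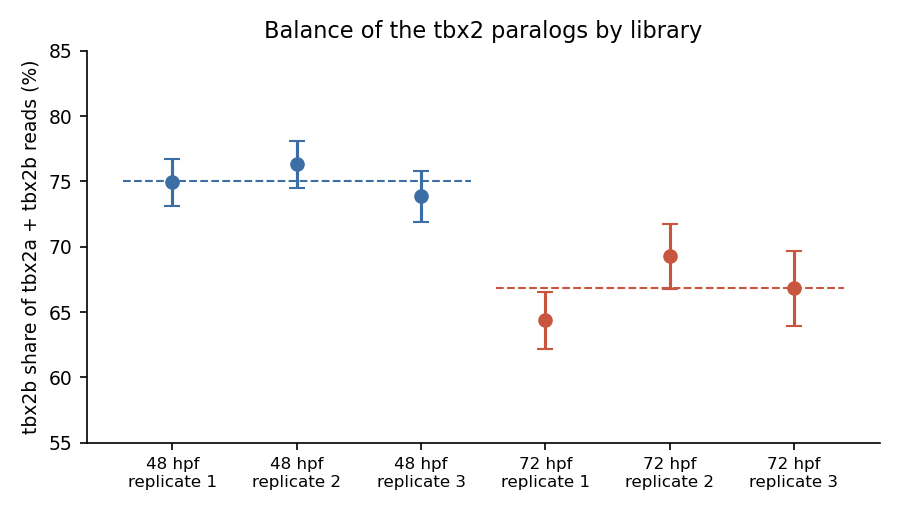
Share of tbx2b among the reads of tbx2a and tbx2b together (vertical axis in percent, from 55 to 85) in each library. Error bars are exact binomial 95% intervals and dashed lines are stage means, and the 3 libraries at 48 hpf lie at 73.9% to 76.4%, above the 64.4% to 69.3% of those at 72 hpf.

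The ligand gene bmp4, on chromosome 17 from 50564070 to 50586135 on the plus strand, encodes a secreted Bmp that signals between canal myocardium and endocardium. It had 2281, 2326 and 1897 counts at the earlier stage and 1578, 1432 and 1611 at the later one. In raw counts every 72 hpf library was below every 48 hpf library, but in CPM replicate 3 at 72 hpf (450) lay above replicate 2 at 48 hpf (413), and the stages overlapped. The normalized level was 2101 ± 239 (SD, n = 3) in the earlier cells and 1645 ± 311 at 72 hpf (SD, n = 3). Its log2 fold change was -0.35 with a standard error of 0.16 and an interval from -0.73 to 0.03 (unadjusted p = 0.0654, adjusted p = 0.573, edgeR). The unadjusted p was under 0.05 in DESeq2 (0.0268), in limma voom (0.0118) and in edgeR with the sorter as a covariate (0.0149). At that p, 1569, 1222 and 890 genes were lower in these 3 fits, beside 904 in the main one. In edgeR it was over 0.05 with RLE size factors (0.0656), no filter (0.0550) and filterByExpr (0.0657). It was 0.147 to 0.209 without replicate 1 or 3 at 48 hpf, or replicate 1 or 2 at 72 hpf. Adjusted over all genes, the p of bmp4 was 0.225 in DESeq2 and ran from 0.225 to 0.759 over the alternatives.

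One library weighed on the bmp4 estimate, which was -0.52 without replicate 3 at 72 hpf (unadjusted p = 0.0116, edgeR) and lay between -0.44 and -0.25 when another library was left out. With raw counts that were not scaled to the total it was -0.49 (unadjusted p = 0.00621, edgeR). Per read of bmp4, the 48 hpf libraries had 0.736, 0.724 and 0.783 reads of tbx2b, and the 72 hpf libraries had 0.774, 0.647 and 0.433. Replicate 3 at 72 hpf had the highest CPM of bmp4 and the lowest of tbx2b at that stage, while replicate 1 kept the ratio seen at 48 hpf.

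For tbx3a the libraries disagreed within a stage. The gene, whose mouse ortholog marks the canal and the conduction system, lies on chromosome 5 from 72316803 to 72324371 on the minus strand. It had 175, 184 and 7 counts in cells of 48 hpf, against 158, 210 and 171 in cells of 72 hpf. Replicate 3 at 48 hpf, at 1.89 CPM, stood far below the other libraries, which had 32.7 to 47.8 CPM. The log2 fold change was 0.84 with an interval from -1.19 to 2.87 (adjusted p = 0.856, edgeR), and it was 0.29 with an interval from -0.56 to 1.15 without that library. In the same library tbx2a, tbx2b and bmp4 had 525, 1485 and 1897 counts, the lowest at 48 hpf for tbx2b and bmp4 in raw counts. Over all tested genes, 682 had a normalized count in it more than 10-fold below that in every other library, a number that was 79 to 350 in 4 of the other libraries and 736 in replicate 3 at 72 hpf. It also held the most RNA of leukocyte markers, at 734 CPM over 10 genes, and of erythrocyte markers, at 589 CPM over 8 genes. Their part in the tbx3a value was not tested.

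The forkhead gene foxn4, on chromosome 5 from 19385503 to 19400166 on the minus strand, was barely read. It had 1, 21 and 13 counts in the 48 hpf libraries and 47, 7 and 2 in the 72 hpf libraries, so 1 library of each stage was under the floor of 3 counts. The highest library, replicate 1 at 72 hpf, held 10.3 CPM and the others 3.73 CPM or less. The stages overlapped throughout. The log2 fold change of 0.70 had an interval from -3.31 to 4.72 (adjusted p = 0.964, edgeR), and it was -1.20 without replicate 1 at 72 hpf, so no direction can be read. The normalized counts varied by 79.3% of their mean at 48 hpf and 129% at 72 hpf (coefficient of variation, n = 3), where counting error alone would give 30.0% and 23.5%. The 2 tested relatives, foxn2b and foxn3, had log2 fold changes of 0.07 and -1.38 (unadjusted p = 0.865 and 0.0538, edgeR), and 11 neuronal markers, of tissues that also use foxn4, held 174 to 424 CPM at 48 hpf and 110 to 258 at 72 hpf. Their part in the foxn4 counts was not tested.

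**Figure D3:**
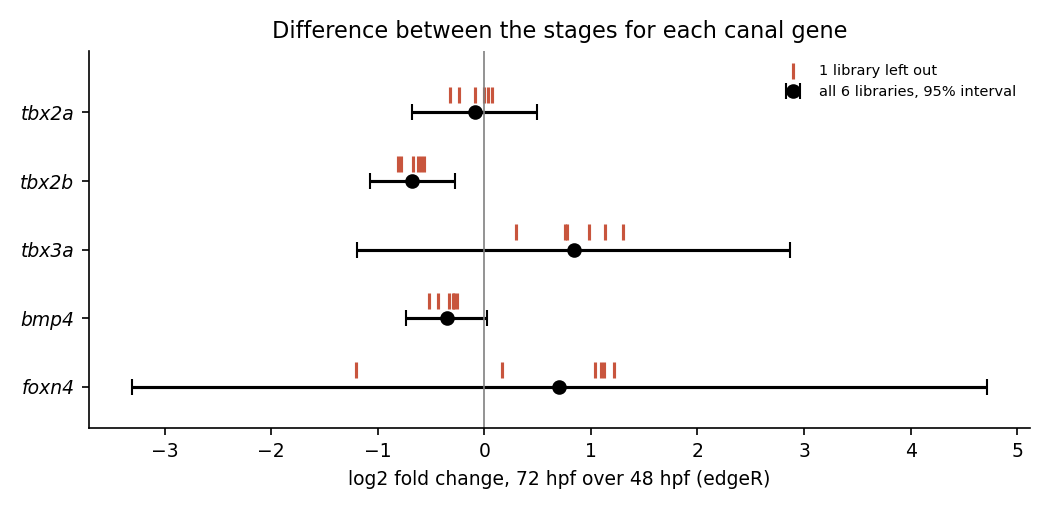
Fitted log2 fold change between 72 and 48 hpf (horizontal axis) for each canal gene. Black points and bars are edgeR's estimate and 95% interval from all 6 libraries, and red ticks are the estimates with 1 library left out. The interval lies below 0 for tbx2b (-1.07 to -0.28), reaches 0.03 for bmp4 and spans both signs widely for tbx3a and foxn4.

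None of the 5 genes overlaps another listed gene within the annotated ends. On the chromosome tbx2b lies 13458 bp from tbx4, a T-box gene of limb and fin, which had 37 counts in replicate 1 at 72 hpf and 0 to 8 elsewhere. The neighbor of tbx3a at 27155 bp is tbx5a, the activator that binds chamber genes, which had 1145, 1027 and 943 counts at the earlier stage and 1292, 982 and 932 at the later one, with overlap. The fitted log2 fold change of tbx5a was 0.15 (adjusted p = 0.877, edgeR).

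Other T-box genes were compared as a list. Of the 17 in the table other than the canal repressors, 13 were tested, 0 were called by edgeR, and at an unadjusted p under 0.05, 1 was higher and 1 was lower, the median estimate being 0.15 on the log2 scale, where all tested genes had -0.02. The lower one was tbx1, a pharyngeal and outflow tract gene, with 50, 179 and 50 counts at 48 hpf and 0 in every 72 hpf library, at least 25.8-fold lower taking 3 counts per library as the floor. The higher one was tbx5b, the second zebrafish Tbx5 gene, with 155, 159 and 111 counts in cells of 48 hpf, against 320, 302 and 192 in cells of 72 hpf, a log2 fold change of 1.05 (unadjusted p = 0.0062, adjusted p = 0.400, edgeR). DESeq2 called both, tbx1 lower and tbx5b higher. Over all tested genes, 3.12% were higher and 5.61% lower at an unadjusted p under 0.05, and DESeq2 called 1.24% higher and 3.02% lower. The closest paralog of tbx3a, tbx3b, had 18 counts in replicate 1 at 48 hpf and 0 in the other libraries.

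Chamber genes that mouse Tbx2 or Tbx3 represses were read beside the repressors. Of 7 in the table and tested, 0 were called by edgeR, 3 were higher and 0 lower at an unadjusted p under 0.05, and 6 had a positive estimate, with a median log2 fold change of 0.26. The connexin gene gja5a had 0, 1 and 1 counts in the 48 hpf libraries and 51, 79 and 162 in the 72 hpf libraries, and its paralog gja5b had 296, 260 and 369 counts at the earlier stage and 551, 547 and 629 at the later one. The sodium channel gene scn5lab had 270, 448 and 221 counts in cells of 48 hpf, against 728, 505 and 696 in cells of 72 hpf. In these 3 genes every 72 hpf library was above every 48 hpf library, and DESeq2 called all 3 higher. Of all tested genes, 7.24% were higher without overlap, 3.12% were higher at an unadjusted p under 0.05 and 1.24% were called higher by DESeq2. The natriuretic peptide genes nppa and nppb had 2399 to 2632 and 1162 to 1245 counts over the 6 libraries, a narrower range than that of the totals, and with duplicates removed these counts can show little of a change.

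Among 11 cardiac activators, the factors with which T-box proteins bind chamber genes, edgeR called 0 and 1 passed an unadjusted p of 0.05, the same tbx5b. Of all tested genes, 8.74% passed it in either direction. The other 10 had log2 fold changes from -0.70 to 0.26, and the list's median was 0.08. The estimate of tbx2b lay near the lowest of these factors, nkx2.7 at -0.70 (unadjusted p = 0.0799, edgeR).

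The Bmp pathway was read from its ligands to its readouts, with 0 genes called by edgeR in any of the lists. Of 12 other Bmp ligand genes tested, 4 were lower and 0 higher at an unadjusted p under 0.05, the median log2 fold change was -1.09, and DESeq2 called 3 lower, beside 5.61% and 3.02% of all genes by the same measures. The 4 were bmp2a, bmp5, bmp6 and bmp7b. Of these bmp5 was read deepest, with 1134, 1284 and 814 counts in the 48 hpf libraries and 718, 494 and 416 in the 72 hpf libraries, a log2 fold change of -0.86 (unadjusted p = 0.0010, adjusted p = 0.320, edgeR), while bmp6 had 65, 47 and 22 counts at 48 hpf and 0 in every 72 hpf library, at least 12.9-fold lower. The ligand gene bmp7b had 197, 177 and 146 counts at the earlier stage and 10, 56 and 1 at the later one, and bmp2a had 11, 77 and 20 counts in cells of 48 hpf, against 0, 3 and 0 in cells of 72 hpf. The estimate for bmp4, at -0.35, was smaller in size than that of each of these 4, which were picked by p in the same data. It was larger in size than that of bmp16, at -0.25 (unadjusted p = 0.313, edgeR). Positive estimates were found in 2 of the 12, where 48.5% of all tested genes had one. These were bmp10 at 0.25 and bmp10l at 0.42 (unadjusted p = 0.410 and 0.112, edgeR). On normalized counts 5 of the 12 were lower and 1, bmp10, was higher without overlap, beside 9.32% and 7.24% of all tested genes.

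Downstream of the ligands, among 11 receptor genes tested the median log2 fold change was 0.01 and 1 gene, the type 1 receptor gene bmpr1ba, was lower at an unadjusted p under 0.05. Of 5 Smad genes 1 was lower, smad1, with a log2 fold change of -0.46 (unadjusted p = 0.0203, adjusted p = 0.488, edgeR). Of 14 genes for inhibitors of the pathway, 13 had a negative estimate, with a median of -0.47, and 2 were lower at an unadjusted p under 0.05. These were bambia, with 1076, 1314 and 904 counts in the 48 hpf libraries and 632, 702 and 596 in the 72 hpf libraries, and its paralog bambib, with 592, 671 and 405 and then 376, 390 and 278, genes of a decoy receptor that is itself induced by Bmp. DESeq2 called bambia lower and 0 of the receptor and Smad genes. Among all tested genes, 48.5% had a positive estimate, 5.61% were lower at an unadjusted p under 0.05 and DESeq2 called 3.02% lower. The 9 Id and Msx readout genes tested had a median of -0.11, and 0 of them passed an unadjusted p of 0.05 or a DESeq2 call. The readout with the most counts, id4, had 587 to 774 in the 6 libraries.

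**Figure D4:**
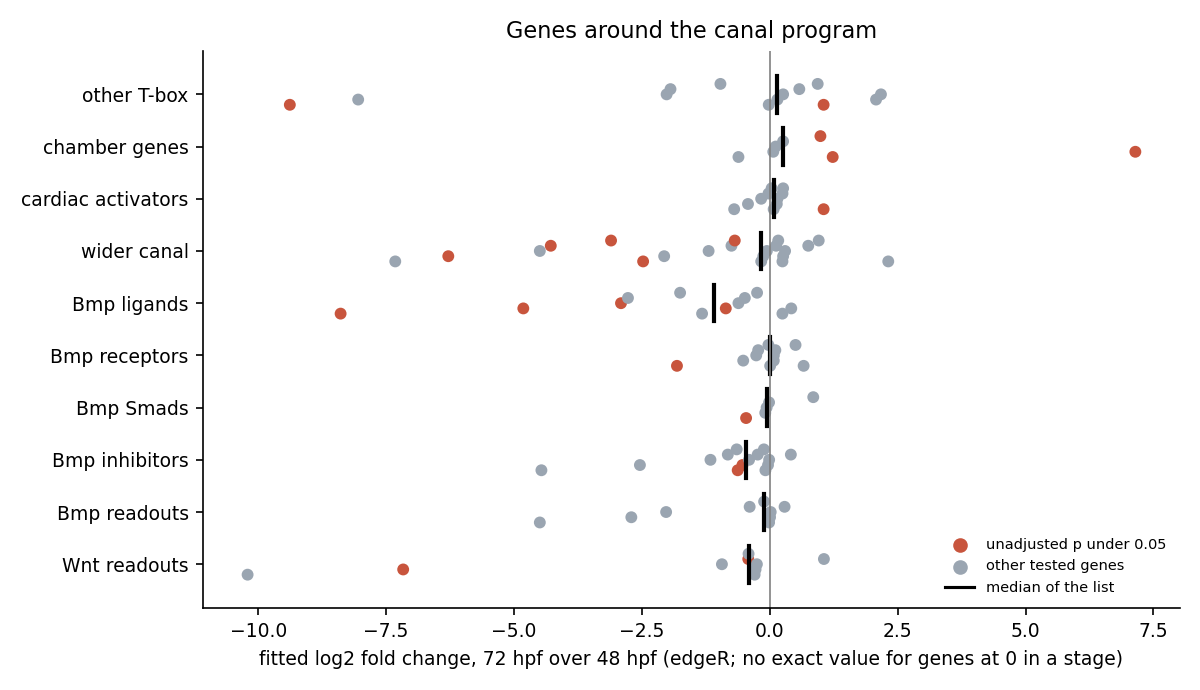
Fitted log2 fold change between 72 and 48 hpf (horizontal axis) of the tested genes in 10 lists around the canal program, 1 row per list. Red points passed an unadjusted p of 0.05 in edgeR, grey points did not, and black bars are list medians, which run from -1.09 for the Bmp ligands to 0.26 for the chamber genes, while 0 of these genes passed after adjustment over all genes.

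Genes that mark the canal and its cushions more widely were read as a list. Some are also in other lists here, tbx20 among the cardiac activators and nfatc1 and notch1b among the endocardial markers. The list is therefore no measure of RNA from canal CMs. Of 21 tested, 5 were lower and 0 higher at an unadjusted p under 0.05, the median log2 fold change was -0.17, edgeR called 0 and DESeq2 called 4 lower, where 5.61% of all tested genes passed the unadjusted p lower and DESeq2 called 3.02% lower. Positive estimates were found in 8 of the 21. The 5 were has2, the hyaluronan synthase gene of the cardiac jelly, twist1b, sox9a and sox9b, which are cushion and valve mesenchyme factors, and hapln1a, the gene of a hyaluronan link protein. Like tbx2b, hapln1a was read deeply in every library, with 3559, 4207 and 2608 counts at the earlier stage and 2599, 1588 and 1667 at the later one, and its log2 fold change of -0.68 (unadjusted p = 0.0041, adjusted p = 0.386, edgeR) was close to that of tbx2b. In contrast has2 had 253, 914 and 259 counts in cells of 48 hpf, against 16, 0 and 0 in cells of 72 hpf. Higher in every 72 hpf library than in every 48 hpf library, on normalized counts, were tbx20, nfatc1 and notch1b, with log2 fold changes of 0.26, 0.96 and 0.75 and unadjusted p-values of 0.182, 0.113 and 0.0529 in edgeR. By that measure 5 of the 21 were lower and 3 higher, beside 9.32% and 7.24% of all tested genes. The canal matrix gene vcana overlapped between the stages, with 366 to 527 counts at 48 hpf and 221 to 525 at 72 hpf. A separate list of 8 valve and cushion mesenchyme markers, has2 and twist1b among them, had 4 positive estimates. At an unadjusted p under 0.05 in edgeR, 2 of the 8 were lower and 0 higher. Their sum overlapped between the stages, at 360 to 814 CPM at 48 hpf and 176 to 1459 at 72 hpf.

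The gate left out cells with Wnt/β-catenin reporter activity, and readout genes of that signal were still present. Of 13 listed genes, 9 were tested, and axin2 had 1037, 1270 and 794 counts in the 48 hpf libraries and 756, 580 and 729 in the 72 hpf libraries, each 72 hpf library lying below each 48 hpf library. In the opposite direction znrf3, a readout that encodes a Wnt receptor ligase, had 51, 86 and 82 counts in the 48 hpf libraries and 191, 131 and 110 in the 72 hpf libraries, again without overlap, and its log2 fold change was 1.06 (unadjusted p = 0.0640, edgeR). On normalized counts 2 of the 9 were lower and 1 was higher without overlap, beside 9.32% and 7.24% of all tested genes. The median of the list was -0.41, 0 were called by edgeR or DESeq2, and 2 were lower at an unadjusted p under 0.05, axin2 and tcf7, the latter with 13, 29 and 15 counts at 48 hpf and 0 at 72 hpf. Of all tested genes, 5.61% were lower at that p. The readouts dkk1a, sp5a and sp5l were at or under 3 counts in all libraries. Whether the tbx2b and bmp4 reads come from atrial CMs or from canal CMs that passed the gate was not tested.

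Marker genes of other cell types were summed in each library. The 12 endocardial markers held 274 to 692 CPM at 48 hpf and 287 to 605 at 72 hpf. Every 72 hpf library had 3 counts or fewer of 5 among them, and 1 of these was at that level in all 6 libraries. On normalized counts, 2 of the 10 tested endocardial markers were lower and 2 higher without overlap, beside 9.32% and 7.24% of all tested genes. The 10 leukocyte markers held 317 to 734 CPM at 48 hpf and 0.28 to 84.0 at 72 hpf. The 7 epicardial markers in the table held 461 to 1013 CPM at 48 hpf and 220 to 1159 at 72 hpf. The 8 pacemaker markers, of which bmp4 is one, held 1273 to 1487 CPM at 48 hpf and 1171 to 1240 at 72 hpf. The 6 ventricular markers in the table held 1017 to 1675 CPM at 48 hpf and 566 to 825 at 72 hpf, and irx4a among them was at 0 in all 6 libraries. The pacemaker sum was lower in every 72 hpf library, but it includes bmp4, itself a canal gene. On normalized counts, 0 of the 7 tested pacemaker markers were lower without overlap and 1 was higher, beside 9.32% and 7.24% of all tested genes. By that measure 2 of the 5 tested ventricular markers, the myosin genes myh7 and myh7l, were lower and 0 higher. Of the 9 tested leukocyte markers 5 were lower and 0 higher. Most of the ventricular sum was myh7, with means of 1108 CPM at 48 hpf and 660 at 72 hpf, while hey2 had a log2 fold change of 2.32 (unadjusted p = 0.277, edgeR). The ventricular and leukocyte sums were lower in every 72 hpf library, as tbx2b was, while the endocardial and epicardial sums overlapped between the stages. Their part in the tbx2b difference was not tested.

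The genes whose pattern over the 6 libraries was most like that of each canal gene were found by Pearson's r of log2 normalized CPM, as a description, among 11036 genes with a mean normalized count above 50. For tbx2b these were ctsh, a lysosomal protease gene (r = 0.995), slc30a7, a zinc transporter gene (r = 0.991), and slc35f6 (r = 0.988), and 49 genes had an r above 0.95. For bmp4 they were plekhb2 (r = 0.994), rasd1 (r = 0.992) and sik1 (r = 0.988). For tbx2a they were cept1a (r = 0.997), chchd6a (r = 0.991) and rasal2 (r = 0.988). For tbx3a they were magt1, ptpn3 and CABZ01079427.1, all with r of 0.996 or more, and 229 genes passed 0.95, each of these 3 having its lowest count in replicate 3 at 48 hpf. For foxn4 the highest r was 0.978, with cc2d1b. No canal gene was among the 3 genes most like another. For foxn4 this was fixed beforehand, since its mean normalized count was not above 50. The 6 points share library and depth.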

How the data were processed

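Bulk RNA of sorted atrial CMs was sequenced as single-end reads, with 3 libraries per stage. The authors deposited raw counts per gene. By the methods and the submitters' processing notes trimming used Trimmomatic 0.39, alignment to danRer11 used STAR 2.7.10a, and Picard 3.0.0 took out duplicates. Reads of ribosomal or mitochondrial origin and reads with several alignments were dropped, and featureCounts 2.0.4 assigned the rest to exons, leaving out those that overlap several genes. Whether strand was used is not given in the sources used here. The 6 totals ranged from 3577234 to 5629941 counts, and 0 columns of other samples were present.

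Libraries were grouped by their labels and compared with edgeR 4.0.16 in R 4.3.3 (TMM, quasi-likelihood test, robust) on genes whose normalized count averaged more than 5. Standard errors were derived from the fold change and its F statistic. The alternatives were DESeq2 1.42.0, limma 3.58.1 with voom and sample weights, RLE size factors, no filter, filterByExpr, no fold threshold, a replicate block, a sorter covariate, a fit to replicates 1 and 2, each library left out, and raw counts without scaling, the last chosen after seeing the data. The scripts were tested on simulated data. Exact permutation tests are two-sided. The 5 genes and the lists were chosen with earlier results of these data known. Named are the 5 genes, list genes that passed an unadjusted p of 0.05, lay at or under 3 counts in a stage or had the most counts, and the 3 genes most like each. The genes tbx3b, tbx4, tbx5a, nppb, nkx2.7, vcana, tbx20, nfatc1, notch1b, znrf3, foxn2b, foxn3, bmp10, bmp10l, bmp16, bcas3, brip1, hey2, myl7, myh6, myh7 and AL954322.2 were named after their values were seen. Symbols isl1a and gja1b were matched as isl1 and cx43 through RefSeq synonyms. Levels are not compared between genes because transcript lengths were not used here.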

Additional observations from a re-analysis of the deposited data

How the results depend on the processing

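The number of genes called higher and lower at 72 hpf, 1 and 0 with edgeR, was 185 and 451 with DESeq2, 2 and 9 with no filter, and 0 and 0 with limma voom, the replicate block, the sorter as a covariate or replicates 1 and 2 only, and it was 0 to 1 higher and 0 lower when 1 library was left out. The number of canal genes called was 1 with DESeq2 (tbx2b, log2 fold change -0.67) and 0 in the other alternatives. The estimate of tbx2a turned to 0.16 with replicates 1 and 2 only and ran from -0.33 to 0.071 when 1 library was left out. That of foxn4 turned to -0.25 with the replicate block and ran from -1.20 to 1.22 when 1 library was left out. The directions of tbx2b, tbx3a and bmp4, of the tbx2b share and of the summed level were the same in every alternative run. Same-numbered libraries did not deviate together (r = -0.01, 0.10 and 0.01 across genes for numbers 1, 2 and 3), 2 of 6 libraries correlated best with their own number, and with the replicate block tbx2b had a log2 fold change of -0.68 and bmp4 one of -0.36 (95% interval -0.61 to -0.12, unadjusted p = 0.0128, adjusted p = 0.494, edgeR). With 3 libraries a stage and duplicates removed, foxn4 varied between libraries beyond its counting error, and changes in the most abundant genes may be understated.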

Other observations

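Beside tbx2b the annotation places a long intergenic noncoding RNA gene, AL954322.2, on chromosome 15 of danRer11 from 27356825 to 27364137 on the minus strand, 257 bp from the first base of tbx2b and pointing away from it. It had 322, 350 and 402 counts in replicates 1, 2 and 3 at 48 hpf and 222, 223 and 188 counts at 72 hpf. As for tbx2b, every 72 hpf library was below every 48 hpf library, and the log2 fold change of -0.68 (95% interval -1.34 to -0.02, unadjusted p = 0.0448, adjusted p = 0.564, edgeR's quasi-likelihood test) was close to the -0.67 of tbx2b. DESeq2 gave an adjusted p of 0.187. Of all tested genes, 9.32% were also lower without overlap on normalized counts. Per read of tbx2b there were 0.192, 0.208 and 0.271 reads of AL954322.2 at 48 hpf and 0.182, 0.241 and 0.269 at 72 hpf, so the ratio overlapped between the stages. AL954322.2 was named after its values were seen, and with the strand setting not stated, reads upstream of tbx2b that belong to either transcript cannot be told apart. Another neighbor of tbx2b, bcas3 at 9635 bp, had 814, 872 and 518 counts at 48 hpf. At 72 hpf it had 620, 159 and 306 counts, lower for each replicate number. It too was named after its values were seen.

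Among the reads of the 5 canal genes, bmp4 took 48.3% to 49.1% in the 48 hpf libraries and 42.9%, 48.0% and 57.0% in replicates 1, 2 and 3 at 72 hpf. The share of tbx2b was 35.5% to 37.8% at 48 hpf and 24.7% to 33.2% at 72 hpf, without overlap. It is computed from the same tbx2b counts as above and is not a separate result. These shares spread more at 72 hpf than at 48 hpf, and the spread was not tested.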
